A study of Homo sapiens with 48 samples.

Results

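The genes of the TRAIL receptors lie side by side on human chromosome 8, and this account covers the ChIP-seq peaks deposited around them. The 4 genes are TNFRSF10B, TNFRSF10C, TNFRSF10D and TNFRSF10A, out of 20033 protein-coding genes of the annotation. They were chosen by the strong RELA and RELB peak next to TNFRSF10B, so the values of that peak are given as a description and support nothing. All peaks from 50 kb before the first to 50 kb after the last of these genes were taken, which is chr8:22970133-23275102 in hg38. This window of 305.0 kb held 147 of the 392665 peaks of the 16 lists.

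The cells were L3.6pl, an established human pancreatic ductal adenocarcinoma line. They received vehicle, TNFα (the activator of canonical NF-κB signaling in this study) or TWEAK (the noncanonical activator), each stimulus for 30 min (called early here) or 6 h (called late), and the labels give no duration for vehicle. RELA, RELB and H3K27ac, an acetylation mark of active promoters and enhancers, were precipitated in these 5 conditions, and the AP-1 subunit FOSL1 in vehicle alone, with 3 replicates of each. Each of the 16 conditions of the 48 samples has a single list of peaks called on merged replicates, so no value here has a replicate error and no difference between lists could be tested.

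TRAIL, encoded by TNFSF10, is a ligand of the TNF family that can trigger apoptosis through its receptors. TNFRSF10A (DR4) and TNFRSF10B (DR5) carry an intracellular death domain that recruits FADD and caspase-8. TNFRSF10C (DcR1) is a decoy held by a GPI anchor with no death domain, and TNFRSF10D (DcR2) is a decoy with a truncated death domain. NF-κB activates transcription through dimers that include RELA in the canonical and RELB in the noncanonical pathway, and TRAIL receptor genes have been described among its targets.

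TNFRSF10B lies at 23020133 to 23069031 on the minus strand, TNFRSF10C at 23102921 to 23117445 on the plus strand, TNFRSF10D at 23135588 to 23164027 on the minus strand and TNFRSF10A at 23190452 to 23225102 on the minus strand. The early TNFα list of RELA had 9 peaks in the window and the late list had 7. RELA had 3 peaks in vehicle, 1 with early TWEAK and 2 with late TWEAK. RELB had 4 peaks with late TWEAK, 2 in vehicle, 1 each with late TNFα and early TWEAK, and none with early TNFα. FOSL1 had 21 peaks and the H3K27ac lists had 16 to 22. The lists differ in size, from 2414 peaks (RELB, early TWEAK) to 11266 (RELA, early TNFα) among the NF-κB lists, and their read depth is not known here.

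**Figure D1:**
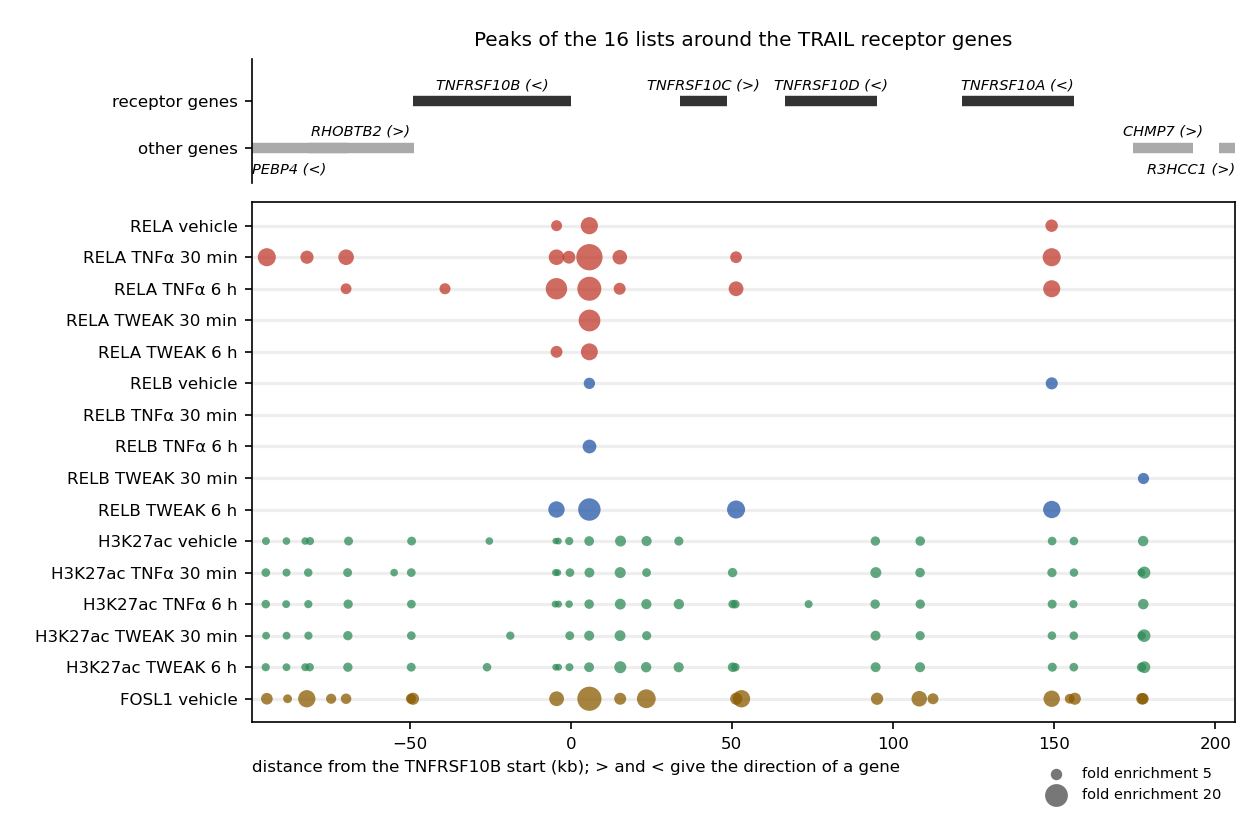
Position of every peak in the window for the 16 lists, against the distance from the TNFRSF10B start in kb, with dot area proportional to fold enrichment over input and the protein-coding genes drawn above. RELA and RELB dots are densest around the TNFRSF10B start, while none of them lies in TNFRSF10D.

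Merging the RELA and RELB peaks that overlapped by at least 1 bp gave 11 sites. RELA was called at 10 of them, RELB at 5 and both at 4, or 36.4% of the sites, against 33.6% of the 16096 merged sites of the whole data set. Many NF-κB peaks elsewhere lie in tandem repeats (41.9% of all merged sites), whereas 0 of the 11 receptor sites did. Outside tandem repeats 16.3% of the 9355 merged sites were called with both antibodies. Flanks of 100 kb in place of 50 kb gave 12 sites. By the nearest start among the 4 receptor genes alone, 8 of the 11 sites were assigned to TNFRSF10B, 2 to TNFRSF10A, 1 to TNFRSF10C and 0 to TNFRSF10D. Several of these sites lay nearer to the start of another protein-coding gene, namely RHOBTB2, PEBP4, ENSG00000284956 or CHMP7.

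The strongest site was 5798 bp upstream of TNFRSF10B, the gene of the DR5 death receptor, at chr8:23074667-23075018 in the first intron of the noncoding gene ENSG00000246130. RELA fold enrichment over input was 11.4 in vehicle, 26.6 with early and 22.1 with late TNFα, and 18.2 with early and 11 with late TWEAK. It was the 10th highest peak of the early TNFα list and the 4th of its 8308 peaks outside tandem repeats. RELB was called there in vehicle (4.94), with late TNFα (7.27) and with late TWEAK (19.3). RELA was thus called in all 5 conditions and RELB in 3, with the highest RELB value with late TWEAK. The RELB value with late TWEAK was 3.91 times that in vehicle, which exceeded the ratio of 97.0% of the 199 sites outside tandem repeats that both lists shared. The genes were chosen by this peak, so that share is a description only. Other ratios of the site were less extreme. RELA with early TNFα over vehicle was 2.33 (above 62.0% of shared sites) and late over early TNFα 0.828 (56.1%). RELB with late TWEAK over RELA with early TNFα was 0.726 (42.3%). The FOSL1 peak on the site had a fold enrichment of 22.4, the 70th highest of 58864, and its summit was 2 bp from the RELA summit.

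The first intron of TNFRSF10B held a site at chr8:23064486-23064758, 4416 bp downstream of the start. Its RELA fold enrichment was 4.62 in vehicle, 9.33 with early TNFα, 17.6 with late TNFα and 5.44 with late TWEAK. It was not called with early TWEAK. RELB was called with late TWEAK only, with 10.3. Unlike the upstream site, this site had its higher TNFα value late, 1.89 times the early value. Over the 2927 sites outside tandem repeats called at both times the median ratio was 0.791, and 98.8% of them had a lower ratio than the intronic site. A peak of FOSL1 (8.42) covered it in vehicle.

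TNFRSF10B also held the only RELA peak within 1 kb of the start of a receptor gene. It lay 535 bp inside the gene, in the first intron, and was called with early TNFα alone with a fold enrichment of 6.37. With early TNFα 8.04% of all protein-coding genes had a RELA peak within 1 kb of their start, and a count of 1 gene of 4 allows no reading against this share. A weak site in intron 3 of TNFRSF10B (4.71, RELA with late TNFα alone) was the lowest of the 11 and had no FOSL1 peak. It is named here after its values were seen. A further site 15229 bp upstream of TNFRSF10B, 143 bp from the start of the protein-coding gene ENSG00000284956, had RELA values of 8.17 with early and 5.53 with late TNFα.

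TNFRSF10A, the gene of DR4, had its site in the first intron as well, at chr8:23218157-23218436 and 6818 bp downstream of the start. RELA fold enrichment was 5.99 in vehicle, 12.6 with early and 11.2 with late TNFα, and the site was not called in either TWEAK list. RELB was 5.63 in vehicle and 11.6 with late TWEAK. RELB was not called there with TNFα at either time or with early TWEAK. In the stimulated lists that called the site, the values were higher than those in vehicle for both antibodies. The 2.06-fold RELB ratio of late TWEAK over vehicle lay close to the median of 2.09 over the 199 shared sites outside tandem repeats. A FOSL1 peak of 10.3 had its summit 0 bp from that of RELA. The other site assigned to TNFRSF10A, called for RELB with early TWEAK alone (4.81), was 21422 bp upstream of it and in exon 2 of CHMP7, in the 5′ UTR.

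Among the decoys, TNFRSF10C had a site 2893 bp past its 3′ end, at chr8:23120231-23120450. RELA was 5.31 with early and 8.4 with late TNFα, and RELB was 12.5 with late TWEAK. It was called in no vehicle list, and RELB exceeded RELA there. The RELB value with late TWEAK was 2.35 times the RELA value with early TNFα, a ratio higher than at 98.9% of the 1304 sites outside tandem repeats in both lists. Between the times of TNFα the RELA value was 1.58 times as high late as early, above 97.6% of the shared sites. No RELA or RELB peak lay inside TNFRSF10D, or nearer to its start than to that of another receptor gene.

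The 3 remaining sites lay past the 3′ end of TNFRSF10B, next to other genes. RELA with early TNFα was 12.5 at the site 12.7 kb from the RHOBTB2 start, 6.68 at the site 228 bp from that start and 9.38 at the site 667 bp from the PEBP4 start. The PEBP4 site was also called with late TNFα, with 4.52, and none of the 3 was called with TWEAK or for RELB.

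Of the 9 sites called for RELA with early TNFα, 6 were also called with late TNFα, 3 were called in vehicle and 4 for RELB with late TWEAK. Outside tandem repeats 35.3% of the 8300 early RELA sites were also called late, 4.28% in vehicle and 15.7% for RELB. The 4 sites shared by the RELA list with early TNFα and the RELB list with late TWEAK were those upstream of and in the first intron of TNFRSF10B, in the first intron of TNFRSF10A and downstream of TNFRSF10C. The shared sites in a first intron were those of TNFRSF10B and TNFRSF10A. The share of all genes with such a site is not at hand, so no contrast with the decoy genes is drawn. The TNFRSF10A site lies in repeated sequence, with 1169 other matches in the genome.

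**Figure D2:**
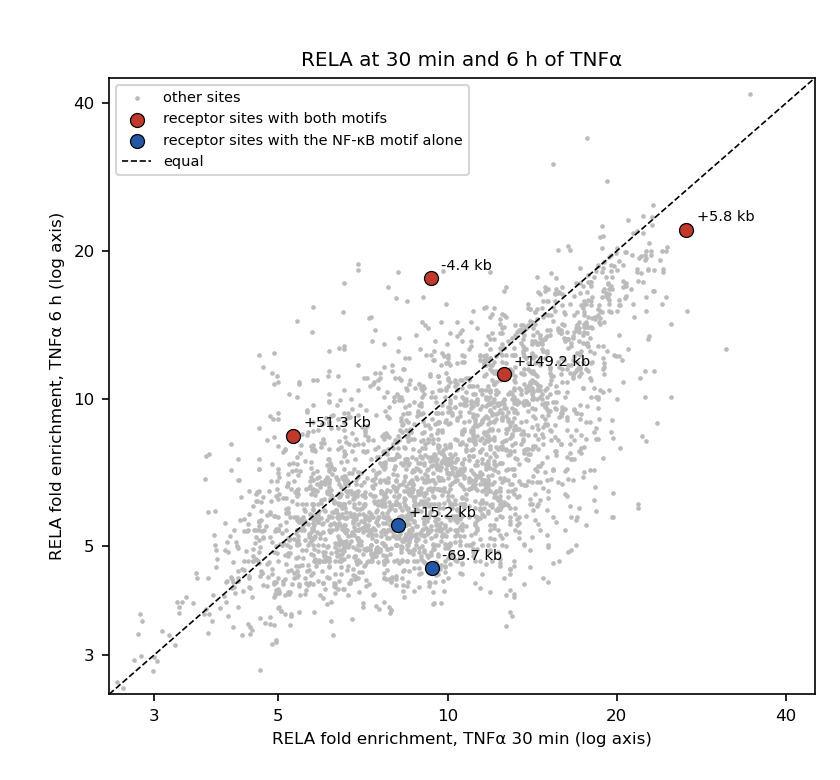
RELA fold enrichment at 30 min (x axis) and 6 h (y axis) of TNFα on log axes for the sites outside tandem repeats called at both times, grey, and for the 6 receptor sites among them, colored by the motifs they hold. The TNFRSF10B intron site (17.6 late) and the TNFRSF10C site (8.4 late) lie above the line of equal values, and the other 4 lie below it, 2 with both motifs and 2 with the NF-κB motif alone.

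Motifs were looked for in the 200 bp around each summit. The NF-κB consensus motif was searched on both strands and occurred at 9 of 11 sites, against 28.7% of all merged sites and 47.5% of those outside tandem repeats. The AP-1 motif (TGACTCA or TGAGTCA, which are reverse complements of each other) occurred at 5 of 11, against 9.52% and 16.2%. Both motifs occurred at 4 sites, and these were the 4 sites called with both antibodies. The NF-κB motif alone was at 5 sites, none of which had a RELB peak. Among all 9355 sites outside tandem repeats, both motifs were found at 6.51%. Of those 609 sites 45.6% were called with both antibodies, compared with 18.7% of the 3834 sites with the NF-κB motif alone.

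The motifs also stood at nearly the same distance from each other in the 4 sites. The gap between them was 6 bp upstream of TNFRSF10B and 7 bp in the TNFRSF10B intron, in the TNFRSF10A intron and downstream of TNFRSF10C. Of the 609 sites with both motifs outside tandem repeats, 3.61% had a gap of 6 or 7 bp, and the median gap was 30 bp. Short gaps as such were more common, with 23.6% of these sites at 0 to 10 bp. The most frequent gap was 4 bp, at 54 sites. The spacing was noticed after the values were seen, and the range of 6 or 7 bp is that of the receptor sites themselves. The NF-κB motif was centered 3.5 bp from the summit upstream of TNFRSF10B, 4.5 bp in TNFRSF10A, 8.5 bp at TNFRSF10C and 18.5 bp in the TNFRSF10B intron.

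These 4 sites are not all independent in sequence. The 300 bp around the TNFRSF10C site matched the TNFRSF10A intron site in the opposite orientation, with 92.3% identity over 260 bp, and the genes themselves run in opposite directions. The 300 bp of the TNFRSF10C site had 5489 other matches in the genome and those of the TNFRSF10A site 1169, so both lie in repeated sequence. The upstream and intronic sites of TNFRSF10B had 0 other matches. How the authors' alignment placed reads from such copies is not given in the sources used here, and its part in the values of the TNFRSF10C and TNFRSF10A sites was not tested. Without these copies, 2 of the 4 sites with both motifs and both antibodies are left. Weaker sites also sat on duplicated sequence. The 300 bp of the TNFRSF10B intron 3 site matched a stretch 46.0 kb upstream of the TNFRSF10B start, inside TNFRSF10C, at 84.9% identity, and those of the site 15229 bp upstream matched a stretch near the 3′ end of the gene at 81.1%.

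FOSL1 peaks of vehicle cells overlapped 9 of the 11 RELA and RELB sites, against 54.7% of all merged sites and 48.5% outside tandem repeats. The 2 sites without FOSL1 were the promoter and intron 3 sites of TNFRSF10B. Of the 21 FOSL1 peaks, 12 had no RELA or RELB site. The highest of these were 10433 bp upstream of TNFRSF10C (fold enrichment 13.6), 19096 bp downstream of its start (11.6) and 13165 bp upstream of TNFRSF10D (9.3). All 3 had an AP-1 motif, and 0 of the 12 had the NF-κB motif, compared with 6 of the 9 on a RELA or RELB site. The same shares over all FOSL1 peaks are not at hand, so these counts describe the window only. The median FOSL1 fold enrichment was 5.7 with and 5.41 without a RELA or RELB site, and the peak of 22.4 upstream of TNFRSF10B stood above all the others.

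The starts of 2 receptor genes carried FOSL1, TNFRSF10D (5.76) and TNFRSF10A (5.61), against 41.4% of protein-coding genes. H3K27ac covered the starts of TNFRSF10B, TNFRSF10D and TNFRSF10A in all 5 lists. At the TNFRSF10B start the fold enrichment was 2.56 in vehicle, 2.87 and 2.16 with early and late TNFα, and 3.02 and 2.45 with early and late TWEAK. At the TNFRSF10A start it stayed between 2.58 and 2.9, and at the TNFRSF10D start between 3.37 and 4.64. TNFRSF10C differed. A short acetylated region just upstream of its start was called in vehicle (3.18), with late TNFα (4.09) and with late TWEAK (3.95), but in neither early list. In each list between 57.6% and 59.4% of protein-coding genes had H3K27ac within 1 kb of the start, with 59.4% in vehicle, 57.6% and 59.2% with early and late TNFα, and 58.2% and 58.8% with early and late TWEAK. The pattern of TNFRSF10C, in vehicle and both late lists but in neither early list, was that of 4.2% of the 81611 merged H3K27ac regions. It was read from this region itself, so the share is a description only. The −log10 q of the TNFRSF10C calls was 3.39 in vehicle, 6.77 with late TNFα and 4.43 with late TWEAK.

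H3K27ac lay within 500 bp of the summit at 9 of the 11 sites in vehicle, 9 and 10 with early and late TNFα, and 8 and 10 with early and late TWEAK. The shares over all merged sites were 48.9% in vehicle, 58.7% and 54.9% with TNFα, and 53.4% and 49.2% with TWEAK. Outside tandem repeats they were 61.9% in vehicle, 71.5% and 69.9% with TNFα, and 61.1% and 62.4% with TWEAK. The site upstream of TNFRSF10B lay inside an acetylated region in every list, of 1346 to 1778 bp and with a fold enrichment of 3.48 to 3.85. That of TNFRSF10A was also acetylated throughout, at 2.8 to 3.25. Over the same 5 conditions RELA spanned 11 to 26.6 upstream of TNFRSF10B. The RELA value is taken at the summit and the H3K27ac value is averaged over a broad peak, so these ranges are unlike measures.

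The other sites with both antibodies were acetylated in fewer lists. In the TNFRSF10B intron, H3K27ac was called on either side of the summit and not over it, with fold enrichments of 1.56 to 1.92 in vehicle, in both TNFα lists and with late TWEAK. These regions were among the lowest of their lists, at percentiles of 0.429 to 3.39 by fold enrichment. Nothing was called there with early TWEAK. Downstream of TNFRSF10C, a region reaching to 32 bp from the summit was called with late TNFα (2.9) and with late TWEAK (2.85) and in no other list. The −log10 q of this region was 5.26 with late TNFα and 2.8 with late TWEAK. With the stricter q for H3K27ac the late TWEAK call was lost, so the pattern rests in part on a weak call. Of the merged H3K27ac regions, 1.22% were called in these 2 lists alone. That share is for the pattern read from this site itself and is a description only. The intron 3 site of TNFRSF10B had H3K27ac in 0 lists.

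**Figure D3:**
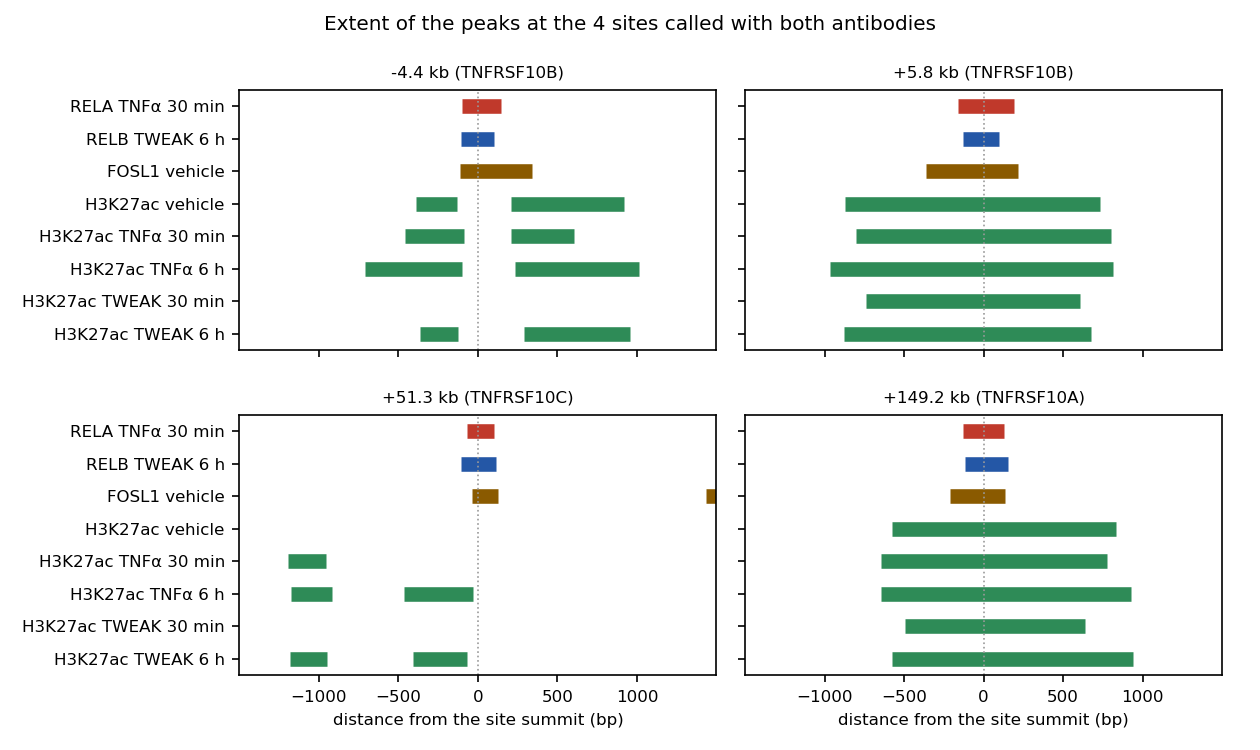
Extent of the RELA, RELB, FOSL1 and H3K27ac peaks around the 4 sites called with both antibodies, in bp from the summit, with a row for each list. H3K27ac spans the summit upstream of TNFRSF10B and in TNFRSF10A in 5 lists, flanks it in the TNFRSF10B intron in 4, and reaches 32 bp from the TNFRSF10C summit with late TNFα.

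Over the whole window the H3K27ac peaks merged into 24 regions. Of these 14 were called in all 5 lists, or 58.3%, against 44.2% of all merged regions. A FOSL1 peak lay in 13 of the 14 and in 16 of the 24. The share of all merged H3K27ac regions with FOSL1 is not at hand, so these FOSL1 counts are a description only. Acetylated regions covered 26.6 kb of the window in vehicle, 24.5 and 29.2 kb with early and late TNFα, and 22.8 and 25.9 kb with early and late TWEAK. The lists as a whole covered 55.5 Mb in vehicle, 45.1 and 55.5 Mb with early and late TNFα, and 46.9 and 46.5 Mb with early and late TWEAK.

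Counted over the gene with its 50 kb flanks, TNFRSF10B had 7 RELA peaks with early and 5 with late TNFα, or 4.7 and 3.36 per 100 kb. These densities were higher than at 99.4% and 99.6% of protein-coding genes. Both counts include the peak by which the genes were chosen, so these shares are a description only. They also include sites near the starts of PEBP4 and ENSG00000284956, and the early count includes those nearest to RHOBTB2. TNFRSF10C, whose stretch includes the start of TNFRSF10B, had 5 and 4. TNFRSF10D and TNFRSF10A had 1 each at both times. Their early densities were higher than at 67.9% and 66.1% of genes, and their late densities than at 83.8% and 82.8%. FOSL1 had 11 peaks for TNFRSF10B, 7 for TNFRSF10C, 6 for TNFRSF10D and 8 for TNFRSF10A. These FOSL1 densities were higher than at 92.1%, 86.2%, 75.0% and 85.2% of genes.

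The TRAIL pathway was described with a list of 25 genes from the ligand to the inhibitors of apoptosis, by the peaks within each gene and 50 kb around it. RELA with early TNFα was found at 15 of the 21 genes other than the receptors of the window (71.4%), against 48.1% of protein-coding genes. With late TNFα it was 9 of 21 (26.8% of all genes), and for RELB with late TWEAK 7 of 21 (13.6%). These shares were above the background in each case, and the shares were not adjusted for gene length or gene density. Neighboring genes that share a peak, such as BIRC2 and BIRC3 or CFLAR and CASP10, were each counted. The other lists gave few genes. RELA was at 3 of 21 in vehicle (5.05% of all genes), 4 with early TWEAK (7.58%) and 3 with late TWEAK (5.12%). RELB was at 3 in vehicle (3.06%), 2 with early TNFα (1.59%), 3 with late TNFα (3.87%) and 0 with early TWEAK (1.41%). The 2 genes with early TNFα were BIRC2 and BIRC3, which shared the peak. FOSL1 was at 21 of 21, where 90.5% of all genes had a peak.

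The ligand gene TNFSF10 had low peaks of RELA with early TNFα (3.82) and of RELB with late TWEAK (4.31). TNFRSF11B, which encodes the soluble decoy osteoprotegerin, had neither RELA nor RELB in any list. In the complex that forms at the death receptors, the adaptor gene FADD had RELA at 17.9 and 17.3 (early and late TNFα) and RELB at 15.1 (late TWEAK). RIPK1, a kinase of the same complex, had RELA at 17.8 and 11.4 and no RELB in any list. Its early peak was 54723 bp from its start. CFLAR, the gene of the caspase-8 inhibitor cFLIP, and its neighbor CASP10 shared a peak of RELA at 10.8 and 7.91, and CASP8 had none. With early TNFα the shared peak was 108 bp from the CASP10 start and 66826 bp from the CFLAR start.

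Genes of the mitochondrial branch that had RELA peaks had no RELB, except DIABLO (RELB 4.79 with late TWEAK). BID, which caspase-8 cleaves, had RELA at 18 and 15.8 with early and late TNFα, and DIABLO, which counteracts inhibitors of apoptosis, had 11.2 and 8.99. Among the inhibitors, BIRC3 and its neighbor BIRC2 shared peaks of up to 13.5 and 13.0 for RELA with early and late TNFα, 15.1 for RELA with early TWEAK and 16.5 for RELB with late TWEAK. MCL1, an inhibitor of the mitochondrial step, had RELA at 7.02 and 4.82 and RELB at 6.77. BCL2, BAX, CYCS and CASP9 had neither RELA nor RELB in any list.

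**Figure D4:**
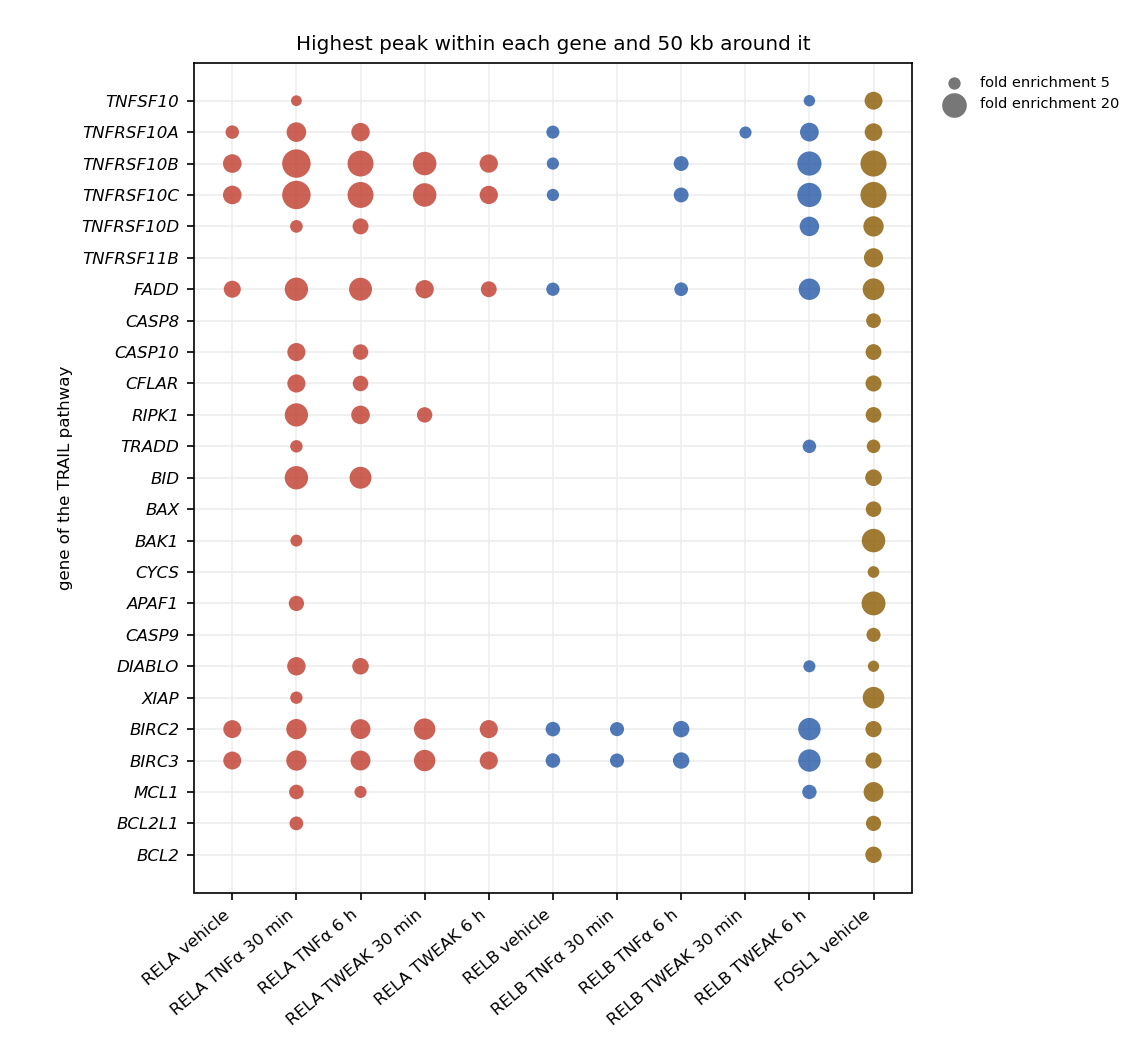
Highest fold enrichment within each of the 25 genes of the TRAIL pathway and 50 kb around it, by list, with dot area proportional to fold enrichment and no dot where there was no peak. TNFRSF10B reached 26.6 and FADD 17.9 for RELA with early TNFα, and both were called in the same 8 NF-κB lists.

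Finally, the pattern of the site upstream of TNFRSF10B over the 10 RELA and RELB lists was set against that of the 9354 other sites outside tandem repeats. The same combination of calls, in all lists but RELB with early TNFα and with early TWEAK, was seen at 35 sites outside tandem repeats, the TNFRSF10B site included. Likeness was measured as the Euclidean distance of the log2 fold enrichments, with 0 for a list without a call. The 5 most similar sites were nearest to PLA2G6 (distance 1.01), TNFAIP3 (1.09), FADD (1.2), KLHDC7B (1.33) and CHST11 (1.36). TNFAIP3, whose site is 1 bp from its start, encodes the NF-κB inhibitor A20. The FADD site, 43469 bp from the FADD start, is thus the closest in pattern among the TRAIL pathway genes, with RELA values of 9.52 in vehicle, 17.9 and 17.3 with TNFα and 11.1 and 8.24 with TWEAK.

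All 5 similar sites had the NF-κB motif, a FOSL1 peak and H3K27ac in 5 lists, while only those near FADD and CHST11 had the AP-1 motif, with gaps of 80 and 55 bp in place of the short gaps at the receptor genes. Their NF-κB motifs are shown so that the element shared by sites of this pattern can be read. Each line gives 30 bp of the plus strand of hg38 with the motif, or its reverse complement, in capitals.
PLA2G6, chr22:38218759-38218788: ggaggctggtGGGAATTCCCccacccacac
TNFAIP3, chr6:137867194-137867223: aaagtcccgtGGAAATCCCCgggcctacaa
FADD, chr11:70159804-70159833: gcaggaccgaGGGGTTTTCCaaggaaagcc
KLHDC7B, chr22:50539796-50539825: tgcgtaactaGGGACTTCCCaactagacag
CHST11, chr12:104671823-104671852: acagccaaatGGAAACCCCCtttgtcacct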

How the data were processed

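The deposited files are 16 peak lists of MACS2, called against input chromatin after alignment to hg38. Per the submitters' processing notes the tools were Bowtie2 2.5.0, SAMtools 1.18, deepTools 3.3.2 and MACS2, without a version. The authors merged the replicates of a condition before calling, but the peak names of RELA after 30 min of TNFα also carry the number of a single replicate, so it is not settled that all 3 were merged there. RELA was precipitated with protein G beads and the other targets with protein A beads. The deposited fold enrichment is the authors' ratio of ChIP over input at the summit, or averaged over the peak in the broad H3K27ac lists. The deposited −log10 q was used for alternatives. The score and the −log10 p of the files were not used. Depth is unknown, so no interval can be given.

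Only peaks of the autosomes and of X and Y were used, and 0 lay past a chromosome end. Genes were those of GENCODE release 44. The highest peak of a merged site gave its summit. A site counted as tandem repeat when the 1000 bp around the summit matched themselves by at least 0.4 at a shift of up to 400 bp. Copies were searched with megablast (blastn 2.17.0, word size 20, E-value 1e-10), and the rest was computed with Python 3.11.15, pandas 2.3.3, numpy 2.4.6 and pysam 0.24.0. The functions were tested on simulated data. There are no replicates within a list, so no test was run. Counts are set beside the share over all genes or sites where that share was at hand.

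The genes and lists were chosen with earlier results of these data known. Named were the 4 receptor genes, the pathway genes, the 10 sites with the highest fold enrichment and the 5 sites of most similar pattern. The 11th site, the motif spacing and the search for copies were chosen after values were seen. Alternatives were a stricter q, a fold enrichment minimum, other flanks, merging rules, motif windows and distances. No base sequence of the receptor region is shown. Some genes of the pathway are not reported here and were left out of its list, its counts and its figure.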

Additional observations from a re-analysis of the deposited data

How the results depend on the processing

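The terms early (30 min) and late (6 h) are as above. Of 158 alternative values, 142 stayed within 1.5 times the reported count. A fold enrichment of at least 5 left 1 RELB vehicle peak and 0 RELB peaks with early TWEAK in the window. It left 0 H3K27ac peaks in vehicle, 1 and 0 with early and late TNFα, and 1 and 2 with early and late TWEAK. Flanks of 10 kb left 7 merged sites, 0 RELB peaks with early TWEAK and 10 H3K27ac peaks with early TWEAK. Over all 25 pathway genes, the 4 receptors included, flanks of 10 kb in place of 50 kb gave 3 in place of 5 genes for RELA with late TWEAK. For RELB they gave 1 in place of 2 with early TNFα, 3 in place of 5 with late TNFα and 0 in place of 1 with early TWEAK. Leaving out the sites with over 100 other matches in the genome, a choice made after seeing the data, left 2 sites with both motifs and 2 with both antibodies.

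No paired analysis was possible because the replicates of each condition were merged in the lists, and leaving out a replicate was not possible for the same reason. Differences in depth or antibody yield between lists cannot be told apart from differences in binding.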
